A study of Mus musculus with 6 samples.

Results

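The 10 genes described here encode the ligands and receptors of the KIT, PDGF and CSF1 systems, and they were chosen by name, as 10 of the 43280 rows in the unfiltered table of gene counts. They are the ligand Kitl with its receptor Kit, the ligands Pdgfa, Pdgfb, Pdgfc and Pdgfd with the receptors Pdgfra and Pdgfrb, and the ligand Csf1 with its receptor Csf1r. When they were grouped, the values of Kitl and Pdgfa in these same libraries were known, and Kitl was known to differ between the groups, so both are described without a p-value, and the p-values of the other 8 genes are read only as the place of each gene within a fit over all rows. RNA was sequenced from submandibular glands (SMGs) of female mice, with 3 libraries labelled WT and 3 labelled DKO, numbered 1, 4 and 5 in each group. The DKO mice were made to lack the heparan sulfate 3-O-sulfotransferases Hs3st3a1, by a frameshift deletion made with zinc finger nucleases, and Hs3st3b1, by a LacZ cassette, in every cell, and the WT mice carry neither change. The mice were on a C57BL/6 background and the glands were treated as adult, and neither the exact age nor the founder line of each mouse is given in the sources used here. The design asked which genes differ in the gland when both enzymes are lost.

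All 3 receptor systems signal through class III receptor tyrosine kinases, which dimerise when a dimeric ligand binds and then phosphorylate each other. KIT is known for maintaining mast cells, melanocytes and germ cells, and it marks cells of the intercalated ducts in salivary glands. PDGFRA is a receptor of fibroblasts and PDGFRB one of pericytes and other mural cells, while CSF1R is needed for the survival of macrophages. Several of the ligands, among them PDGF-A and PDGF-B, can bind heparan sulfate through basic stretches, which keeps them near the cells that release them.

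Total counts ranged from 23674258 to 29611975 per library, and the 10 genes had between 107 and 1598 counts in any library, so all 10 were tested. The targeted genes were not lower in the libraries labelled DKO. Hs3st3b1 had 173, 203 and 261 counts in WT 1, 4 and 5 and 255, 120 and 189 in DKO 1, 4 and 5, and Hs3st3a1 had 15, 11 and 15 counts against 11, 8 and 13. The log2 ratio of DKO over WT was -0.04 for Hs3st3b1 (DESeq2 adjusted p = 0.976) and -0.22 for Hs3st3a1 (DESeq2 adjusted p = 0.947). For Hs3st3b1, which the DKO mice were made to lack in every cell, the mean was 201 normalized counts in WT and 195 in DKO. This level is in conflict with the stated loss. Hs3st3a1 had few counts, with a 95% interval of -1.41 to 0.98. It also shares 1295 bases of exon with F930015N05Rik on the opposite strand, so its row can neither back the labels nor go against them. Thus neither targeted gene backs the labels. The reason for the Hs3st3b1 level was not tested, and WT and DKO below stand for the libraries labelled so. Values are counts divided by the DESeq2 size factor of each library, called normalized counts, and the log2 ratio of a gene is the DESeq2 log2 fold change of DKO over WT with 95% Wald intervals. The labels do not say that libraries of a group came from separate animals. The p-values set each difference against the variation between these libraries, with dispersions shared across genes, and need not hold for other animals.

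Of the 10 genes, 3 were lower in DKO with a DESeq2 adjusted p-value under 0.05, namely Kitl, Kit and Pdgfra, and 0 were higher. Kitl was chosen with this difference in view and nothing is read from its call, which leaves 2 of the other 8. Among all 18606 rows tested, 1.88% were lower and 1.02% higher by the same threshold (2.9% in either direction), and among the 11489 rows with a mean of at least 50 normalized counts, which all 10 genes had, 2.18% were lower. All 10 log2 ratios were negative, with a median of -0.40 against 0.00 for all rows, of which 49.8% were negative. In 6 genes every DKO library lay below every WT library, against 10.5% of all rows and 10.4% of those with a mean of at least 50. Kitl, known to differ when the genes were grouped, is among the 6 and among the 10 negative ratios behind the median. These counts are therefore only a description of the 10 genes. The number that passed depended on the method and on single libraries. It was 0 with edgeR's quasi-likelihood test and with limma-voom, which called 0.0269% and 0.0215% of all rows lower. In each of these tests 6 genes had an unadjusted p-value under 0.05. So did 2789 (edgeR) and 2609 (limma-voom) of the 18606 rows, in either direction. The number that passed was 1, the gene Kit, when WT 1, WT 5, DKO 4 or DKO 5 was left out, where 0.522%, 0.495%, 0.557% and 0.551% of all rows were lower. It was 4 when WT 4 (Kitl, Kit, Pdgfra and Csf1r) or DKO 1 (Kit, Pdgfd, Pdgfra and Csf1r) was left out, where 3.14% and 2.38% of all rows were lower. With total counts as size factors it was 6, Kitl among them, beside 7.56% of all rows, and with the replicate number as a block 2, beside 1.12%.

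**Figure D1:**
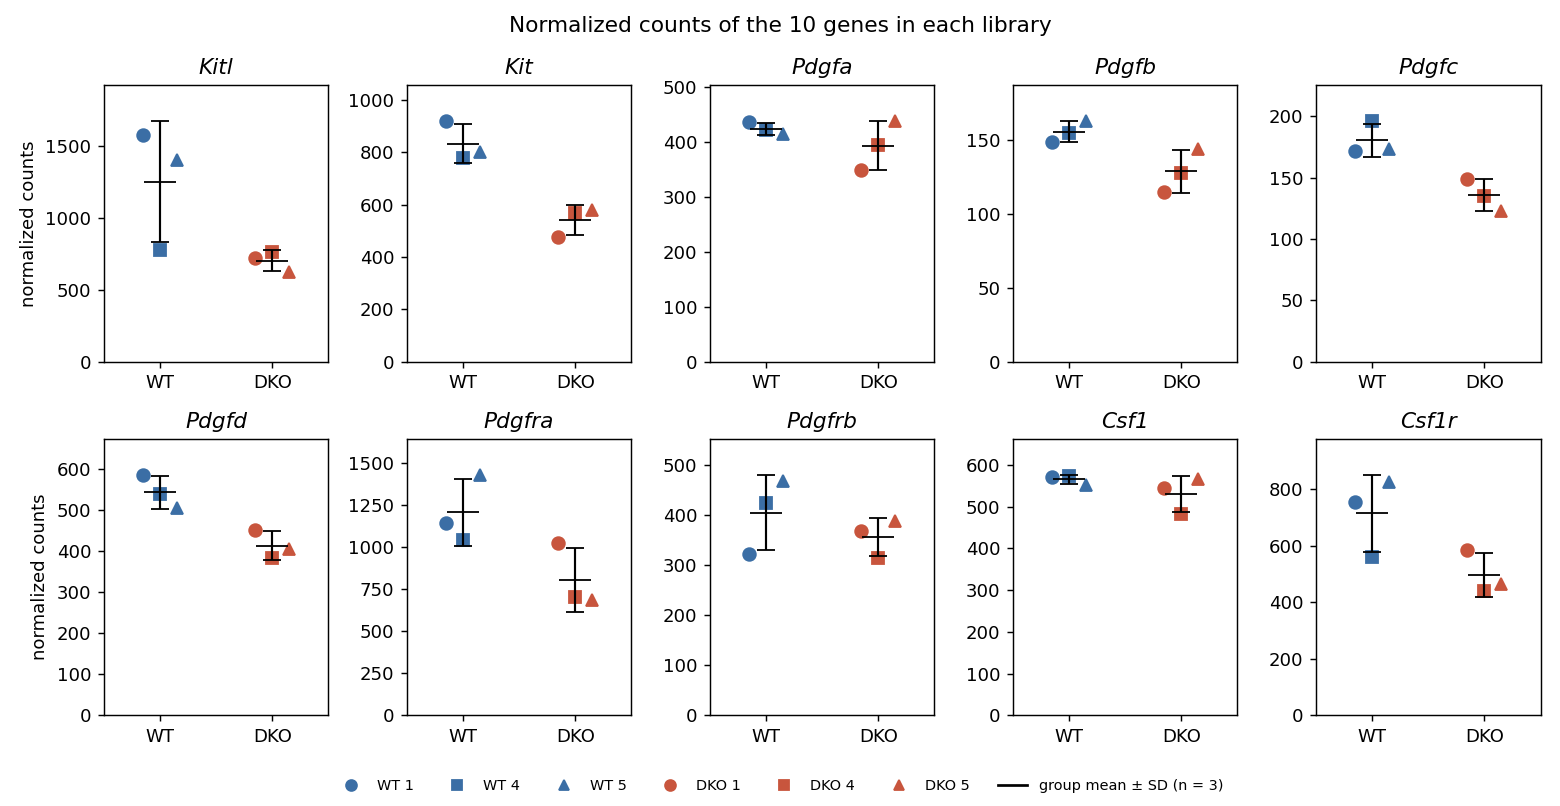
Normalized counts of each gene (vertical axes from 0) in the 3 WT and 3 DKO libraries, with the group mean ± SD as black bars. The groups do not overlap for Kitl, Kit, Pdgfb, Pdgfc, Pdgfd and Pdgfra, and WT 4 lies near the DKO libraries for Kitl, with 776 normalized counts against a highest DKO value of 762.

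**Figure D2:**
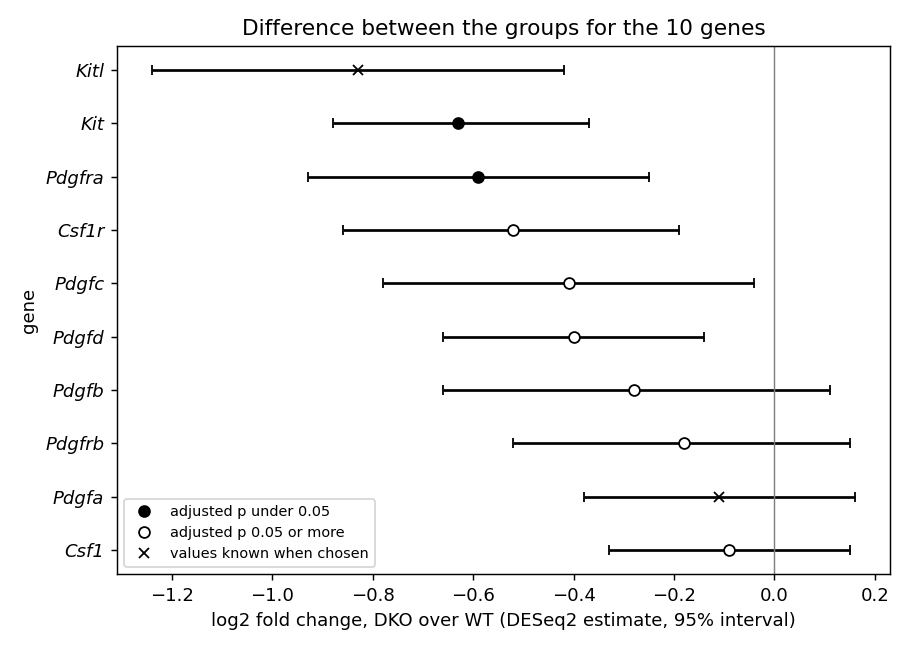
Log2 ratio of DKO over WT for each gene with the 95% interval of the DESeq2 estimate (horizontal axis), filled where the adjusted p-value was under 0.05 and drawn as a cross, with no test shown, for Kitl and Pdgfa. All 10 estimates are negative, from -0.83 for Kitl to -0.09 for Csf1, and the intervals of Pdgfa, Pdgfb, Pdgfrb and Csf1 include 0.

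Kitl encodes stem cell factor, the ligand of KIT, which cells present on their surface or release after cleavage. The gene lies on the plus strand of chromosome 10 from 100015630 to 100100416 in GRCm38. Kitl was at 1579, 776 and 1401 normalized counts in WT 1, 4 and 5, against 724, 762 and 625 in DKO 1, 4 and 5. The DKO libraries lay close together, with an SD of 70.8, and the WT libraries did not, with an SD of 422 and WT 4 only just above the highest DKO library. The log2 ratio was -0.83 (DESeq2 SE 0.21, n = 3 per group), which corresponds to 43.8% less. This size ran from -0.63 without WT 1 to -1.08 without WT 4. It was thus the gene with the lowest estimate and also the one whose estimate rested most on single libraries.

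Kit encodes the receptor of stem cell factor and lies on the plus strand of chromosome 5 from 75574916 to 75656722. Kit was at 920, 778 and 803 normalized counts in WT 1, 4 and 5, against 475, 567 and 581 in DKO 1, 4 and 5. The lowest WT library was well above the highest DKO library, and the spread within each group was small, with an SD of 76 in WT and 57.3 in DKO. Kit fell by 0.63 on the log2 scale (DESeq2 SE 0.13, adjusted p = 4.32e-04), or by 35.2%. It was the only one of the 10 genes that passed the threshold in all 6 fits that left out a library, with DESeq2 adjusted p-values up to 0.0284. It did not pass with edgeR (adjusted p = 0.108) or limma-voom (adjusted p = 0.11). In whole gland RNA, fewer cells that express a gene and less RNA per cell cannot be told apart, here or for any gene below.

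Within a library, Kitl and Kit can be compared without any scaling between libraries. Per kilobase of exon, the level of Kitl was 2.59, 1.5 and 2.63 times that of Kit in WT 1, 4 and 5 and 2.3, 2.03 and 1.62 times in DKO 1, 4 and 5. These ratios overlapped, with means of 2.24 ± 0.638 in WT and 1.98 ± 0.34 in DKO (SD, n = 3), so ligand and receptor were both lower while their ratio did not separate the groups. The lowest ratio of all was that of WT 4. The size of the ratio depends on the length used. The WT means of Kitl and Kit were 212 and 93.6 per kilobase of merged exons, and 222 and 159 per kilobase of the longest transcript. The ratios between other genes below also rest on merged exons.

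Because this ligand and receptor had the lowest estimates of the 10, a stretch of 30 bases before the RefSeq start of each is shown, picked with these values known, taken from the RefSeq promoters of GRCm38.p6, in which 7 of the 10 genes matched. Capitals mark the GC box letters GGGCGG and the TATA box letters TATAAA, searched on both strands together with the E-box CACGTG in the 250 bases before the start.
Kitl, chr10:100015772-100015801, plus strand: tggcGGGCGGGCGGgagggagctgTATAAA
Kit, chr5:75574865-75574894, plus strand: aggcagcgggagggagtgcgacccGGGCGG
The Kitl window held 3 matches to the GC box, of which 2 overlap in the stretch shown, and 1 TATA box, and the Kit window held 1 GC box and no TATA box. Neither held the E-box. Of the 32851 RefSeq windows of this length, 32.7% held a GC box, 12.4% a TATA box and 6.02% an E-box. The Kitl stretch starts 49 bases before the RefSeq start and lies inside the GENCODE gene, which begins further upstream. A match is a run of letters and no evidence of a factor.

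KIT is also carried by mast cells and melanocytes, whose own markers were close to 0. Of 8 mast cell genes, 5 had at least 10 counts in all, and their sum was between 23.5 and 49.5 normalized counts in the WT libraries and between 3.46 and 27.5 in the DKO libraries. Tpsab1, Fcer1a and Ms4a2, the last 2 encoding chains of the IgE receptor, had at most 2 counts in any library. In DKO 4 and 5 the sum was below every WT library and in DKO 1 it was not. All 5 genes had negative log2 ratios, with a median of -1.09 and 0 past the threshold. Mcpt4, Tpsb2 and Hdc had no adjusted p-value, so only Cpa3 and Cma1 could have passed. Of 5 melanocyte genes, only Pmel could be tested, and Dct, Tyr and Tyrp1 were listed at 0 counts in all 6 libraries. Duct markers were measured as well. Of 10 intercalated and striated duct genes, 0 passed the threshold (0 higher and 0 lower). For Dcpp1, Dcpp2 and Dcpp3 the fit gave no p-value, so they could not pass in either direction. Each was highest in WT 5, at 6592, 17850 and 10077 normalized counts, and next in DKO 1, at 454, 991 and 1212. No other library exceeded 57.5 for any of them. Their log2 ratios of -3.64, -4.17 and -3.04 thus rest on WT 5 and show no difference shared by the libraries of a group. The summed level of the 10 genes, most of it the intercalated duct product Smgc, ran from 35877 to 304027 in the WT libraries and from 30425 to 129813 in the DKO libraries. Of the 10 genes, 8 had negative log2 ratios, Dcpp1, Dcpp2 and Dcpp3 among them, and the median was -0.32. Of 6 acinar genes, Aqp5 and Agr2 rose and 0 fell. The part of these markers in the Kit and Kitl values was not tested.

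The receptor Pdgfra, the PDGF receptor of fibroblasts, lies on chromosome 5 from 75152292 to 75198215, with 376.7 kb between its end and the start of Kit. Pdgfra was at 1146, 1045 and 1431 normalized counts in WT 1, 4 and 5, against 1025, 703 and 684 in DKO 1, 4 and 5. DKO 1 was within 20 normalized counts of WT 4, and the other DKO libraries were far below all WT libraries. Pdgfra fell by 0.59 on the log2 scale (DESeq2 SE 0.17, adjusted p = 0.03), or by 33.4%. The call was lost with edgeR (adjusted p = 0.198) and limma-voom (adjusted p = 0.23) and when WT 1, WT 5, DKO 4 or DKO 5 was left out, with DESeq2 adjusted p-values up to 0.437 (without WT 5). The estimate was -0.80 without DKO 1 and -0.44 without WT 5.

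Pdgfrb, the receptor of pericytes and vascular smooth muscle, was at 322, 424 and 468 normalized counts in WT 1, 4 and 5, against 368, 314 and 387 in DKO 1, 4 and 5. The groups overlapped, with WT 1 below 2 of the DKO libraries. Its log2 ratio was -0.18 (95% interval -0.52 to 0.15, adjusted p = 0.752). The ratio of the Pdgfra level to the Pdgfrb level per kilobase was 1.65 ± 0.3 in WT and 1.24 ± 0.279 in DKO (SD, n = 3), and the ranges overlapped. The difference between these ratios was not tested.

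Markers of the cells that carry each receptor were measured beside them. Of 10 fibroblast genes, Dcn and Pi16 fell, 0 rose and 8 did not pass the threshold, with a median log2 ratio of -0.51. Their summed level was 12041, 10442 and 15158 in WT 1, 4 and 5 and 11407, 7951 and 9018 in DKO 1, 4 and 5, with WT 5 highest and DKO 4 and 5 lowest, as for Pdgfra, although DKO 1 was above WT 4. Of 9 pericyte and mural genes, 0 passed the threshold in either direction, Higd1b having no adjusted p-value, and their median was -0.00. Their summed level overlapped between the groups, from 2167 to 2407 in WT and from 2146 to 2507 in DKO. Myoepithelial genes were measured as well, without taking their cells as carriers of these receptors. Of 10 such genes, 9 could be tested, Oxtr having too few counts. Among these, 7 fell, with Acta2 and Cnn1 among them, and 0 rose. Whether these markers account for the Pdgfra and Pdgfrb values was not tested.

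Pdgfa and Pdgfb encode the classical PDGF chains, which are released in active form, and Pdgfc and Pdgfd encode chains that need cleavage of an N-terminal CUB domain before they can bind a receptor. Pdgfd was at 586, 539 and 506 normalized counts in WT 1, 4 and 5, against 452, 383 and 404 in DKO 1, 4 and 5, with no overlap. Its log2 ratio was -0.40 (DESeq2 SE 0.13, adjusted p = 0.069), and it passed the threshold without DKO 1 (DESeq2 adjusted p = 0.0323). Pdgfc was at 172, 196 and 173 normalized counts in the WT libraries, against 149, 135 and 123 in the DKO libraries, also with no overlap. Its log2 ratio was -0.41 (DESeq2 SE 0.19, adjusted p = 0.281). Both chains that need cleavage were lower in DKO by the estimate, at 24% for Pdgfd and 24.5% for Pdgfc, without passing the threshold.

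Pdgfb, in other tissues a product of endothelial cells, was at 149, 155 and 163 normalized counts in WT 1, 4 and 5, against 115, 128 and 144 in DKO 1, 4 and 5. The highest DKO library was just below the lowest WT library, and the log2 ratio was -0.28 (95% interval -0.66 to 0.11, adjusted p = 0.615). Of 10 endothelial genes, 0 passed the threshold, and all 10 had positive log2 ratios with a median of 0.23. Pdgfa was at 436, 422 and 415 normalized counts in the WT libraries, against 349, 394 and 438 in the DKO libraries. The highest value of all was that of DKO 5, so the groups overlapped, and the log2 ratio was -0.11 (95% interval -0.38 to 0.16). Pdgfa shares 813 bases of exon with 6330403L08Rik on the opposite strand, which had between 125 and 171 counts, and reads from these strands cannot be separated in unstranded libraries.

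The makeup of the PDGF ligands did not separate the groups. As a share of the summed ligand level per kilobase, Pdgfd made up 45.2% ± 1.64 in WT and 41.6% ± 3.74 in DKO (SD, n = 3), and Pdgfa made up 35.7% ± 0.503 and 40.1% ± 3.71. Pdgfb held 9.83% ± 0.808 and 9.83% ± 0.892, and Pdgfc held 9.3% ± 0.758 and 8.49% ± 1. All 4 shares overlapped between the groups. The summed level of the 4 ligands was 2 ± 0.352 times that of both receptors in WT and 2.2 ± 0.308 times in DKO (SD, n = 3), again with overlap.

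Csf1 encodes the growth factor of macrophages, and it had the smallest mean deviation of the 10 genes over the 6 libraries, at 0.062 on the log2 scale. Csf1 was at 570, 573 and 552 normalized counts in WT 1, 4 and 5, against 545, 483 and 566 in DKO 1, 4 and 5. The DKO libraries 1 and 4 were below all WT libraries and DKO 5 was not, and the log2 ratio was -0.09 (95% interval -0.33 to 0.15, adjusted p = 0.868). Its receptor Csf1r was at 756, 561 and 825 normalized counts in the WT libraries, against 584, 441 and 463 in the DKO libraries. DKO 1 was above WT 4, so the groups overlapped. The log2 ratio of Csf1r was -0.52 (DESeq2 SE 0.17, adjusted p = 0.0584), and it passed the threshold without WT 4 (adjusted p = 0.00334) or without DKO 1 (adjusted p = 0.018), the libraries that met in the middle. Per kilobase, the level of Csf1 was 0.891 ± 0.202 times that of Csf1r in WT and 1.18 ± 0.159 times in DKO (SD, n = 3), with overlap between WT 4 and DKO 1.

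Csf1r lies 15.54 kb beyond the end of Pdgfrb on chromosome 18. It shares 873 bases of exon with Hmgxb3 on the opposite strand, which had between 422 and 587 counts, so part of the reads over those bases cannot be placed with one gene. Of 10 macrophage genes, Emr1, C1qa, C1qb and Mrc1 fell, 0 rose and 6 did not pass the threshold, with a median log2 ratio of -0.75. Emr1, which encodes the F4/80 antigen, was at 332, 200 and 345 normalized counts in the WT libraries, against 168, 143 and 121 in the DKO libraries. The summed level of the macrophage genes was 3050, 1982 and 3031 in WT 1, 4 and 5 and 1886, 1693 and 1313 in DKO 1, 4 and 5. WT 4 was the lowest WT library in this sum, as in Csf1r, Kitl, Kit and Pdgfra and in the fibroblast sum. Lymphocyte markers moved in the same libraries, with sums of 3820, 830 and 2665 in WT 1, 4 and 5 and between 363 and 623 in the DKO libraries, and the part of both marker lists in the Csf1r and Kitl values was not tested.

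Compared per kilobase of merged exons, where levels of different genes can be set side by side, Kitl was highest in WT with 212 ± 71.4 normalized counts per kilobase, followed by Pdgfd (172 ± 12.7) and Pdgfa (136 ± 3.56). Csf1r (124 ± 23.8), Pdgfra (120 ± 20) and Csf1 (107 ± 2.2) came next, then Kit (93.6 ± 8.53) and Pdgfrb (73.8 ± 13.7), and Pdgfb (37.4 ± 1.65) and Pdgfc (35.4 ± 2.62) were lowest (SD, n = 3). In this order the WT ranges of neighbours were separate for Pdgfd and Pdgfa, Csf1 and Kit, Kit and Pdgfrb, and Pdgfrb and Pdgfb, and they overlapped for the other 5 pairs. In DKO, Pdgfd (131 ± 11.2) and Pdgfa (126 ± 14.3) were highest and Kitl (119 ± 12) followed, and only Kit and Pdgfb were separate among neighbours. Kitl stood above 86.4% of the protein-coding genes tested in WT and Pdgfc above 41.5%. The order depended on the length used. With the longest transcript in place of merged exons, 4 of the 10 genes kept their place in WT, namely Kitl, Pdgfrb, Pdgfb and Pdgfc.

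**Figure D3:**
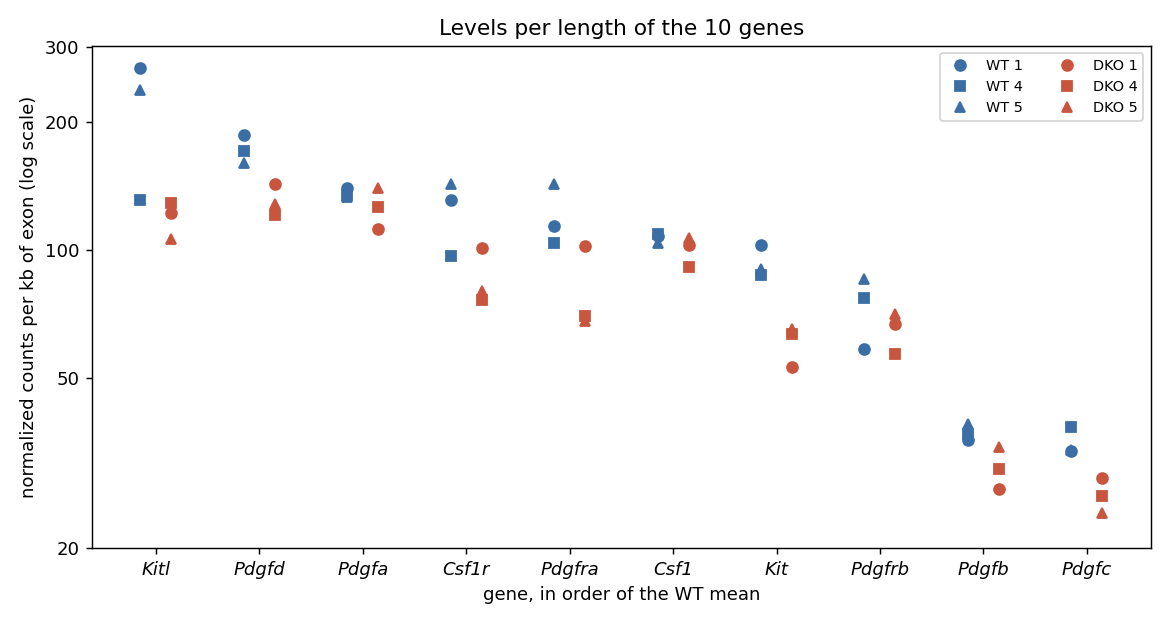
Normalized counts per kilobase of merged exons (vertical axis, log scale) of each gene in every library, ordered by the WT mean. Kitl in WT 1 and WT 5 is highest, at 267 and 237, while Pdgfb and Pdgfc stay between 24.2 and 39.2.

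The genes with the most similar profile over the 6 libraries were found by the mean absolute gap between log2(normalized count + 1) profiles, each centred on its own mean, among 11488 other genes with a mean of at least 50 normalized counts. The libraries and their scaling are shared by all genes, and the closest of so many genes will always be close. For Kitl, whose own mean deviation was 0.466, the closest were C1qb, a complement gene of macrophages, with a gap of 0.062, Fcer1g (0.076), which encodes the shared gamma chain of Fc receptors, and Cyba (0.077), which encodes a subunit of the phagocyte NADPH oxidase. C1qb was at 477, 245 and 418 normalized counts in WT 1, 4 and 5, against 241, 254 and 188 in DKO 1, 4 and 5, low in WT 4 as Kitl was. For Kit, with a mean deviation of 0.312, the closest were 9530082P21Rik (0.052), Prss23 (0.067) and the kallikrein Klk1b11 (0.068), a member of a family of near-identical genes whose reads the counting could have split. For Pdgfra, with a mean deviation of 0.325, they were Igfbp4 (0.044), Lrp1 (0.049) and Prelp (0.052), which encode an IGF-binding protein, an endocytic receptor and a matrix proteoglycan.

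For Csf1r, with a mean deviation of 0.282, the closest were Samd4 (0.048), Ecm1 (0.056) and Marcks (0.058). For Pdgfd, with a mean deviation of 0.199, they were Apaf1 (0.033), Dleu2 (0.040) and Osbpl5 (0.045), and for Pdgfc, with 0.204, they were Hpgd (0.039), Ttbk2 (0.040) and Stk38l (0.044). No gene stood in more than 1 of these 6 lists.

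**Figure D4:**
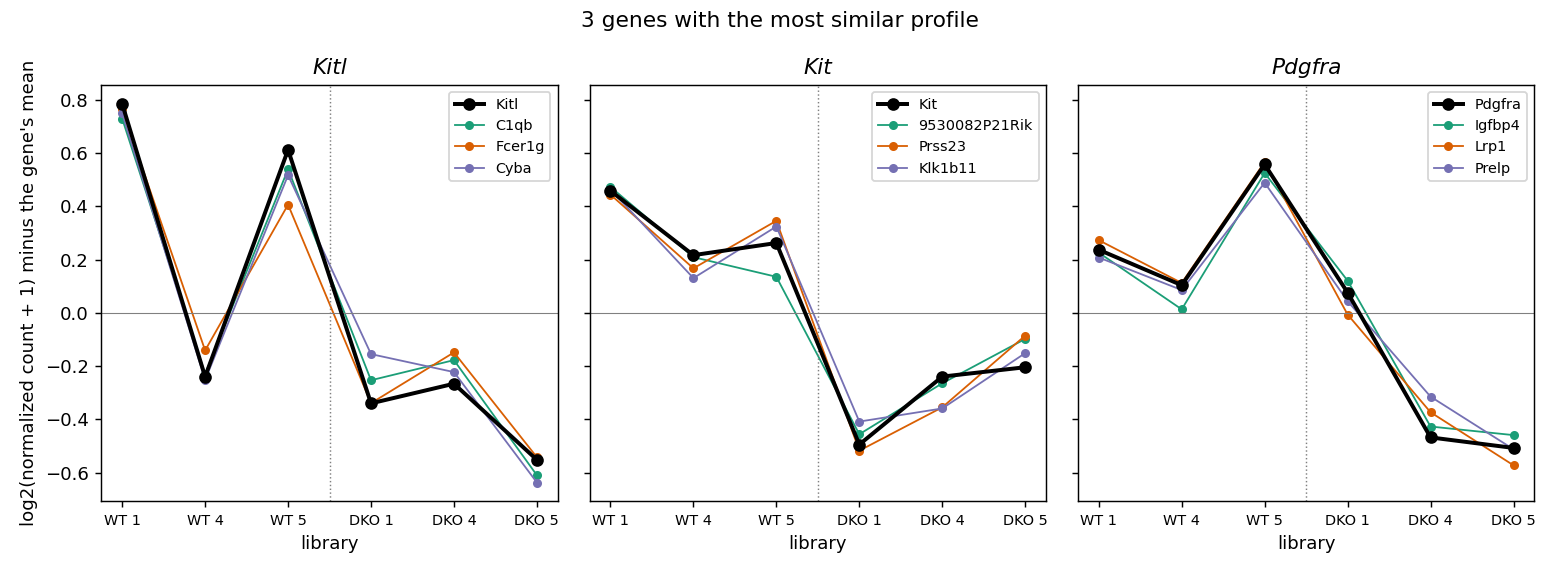
Profiles of Kitl, Kit and Pdgfra (black) and of the 3 genes nearest to each (colours) over the 6 libraries, as log2(normalized count + 1) minus the mean of the gene. Kitl and its neighbours are low in WT 4, Kit and its neighbours are low in all DKO libraries, and Pdgfra and its neighbours are highest in WT 5.

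Of 42 further genes of these pathways, 1 fell and 0 rose, a share near the 1.88% and 1.02% of all rows. This was Pik3r1, which encodes the regulatory subunit of PI3-kinase that docks on phosphorylated receptors, with 5773, 5667 and 5858 normalized counts in WT 1, 4 and 5 and 4980, 4793 and 4439 in DKO 1, 4 and 5. The log2 ratio of Pik3r1 was -0.28 (DESeq2 SE 0.08, adjusted p = 0.0322), a fall of 17.8% with no overlap. The call was lost with edgeR, limma-voom and the replicate number as a block, and without WT 1, WT 4, WT 5 or DKO 5. The other 18 adaptors, kinases and phosphatases did not pass, nor did the 7 proteases that shed or activate these ligands, whose median was -0.23.

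The remaining ligands and receptor of the class did not pass either. Il34, the second ligand of CSF1R, was at 175, 176 and 220 normalized counts in the WT libraries, against 166, 174 and 158 in the DKO libraries (log2 ratio -0.20, adjusted p = 0.749). The receptor Flt3 had 31, 13 and 28 counts in the WT libraries and 12, 9 and 3 in the DKO libraries, with no overlap and few counts (log2 ratio -1.48, SE 0.63, adjusted p = 0.22). Its ligand Flt3l had 45, 35 and 31 counts in the WT libraries and 38, 20 and 13 in the DKO libraries (DESeq2 adjusted p = 0.696). Of 13 immediate response and feedback genes of receptor signaling, 0 passed the threshold, Etv4 having no adjusted p-value. The median log2 ratio of the 13 was 0.24, opposite in sign to that of the ligands and receptors. Dusp6, a phosphatase of ERK, had a log2 ratio of 0.44 (DESeq2 SE 0.16, adjusted p = 0.0972) and passed when WT 1 or DKO 1 was left out, and Dusp4 passed when DKO 4 or DKO 5 was left out.

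**Figure D5:**
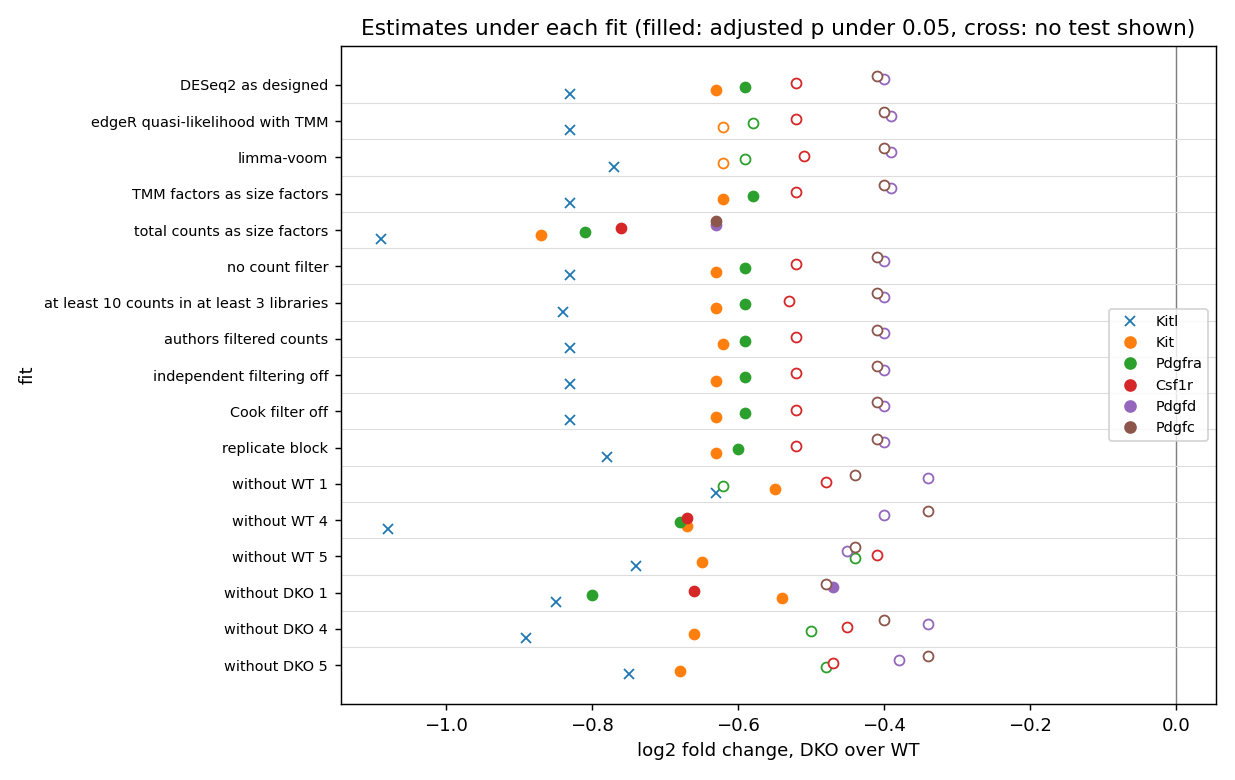
Log2 ratio of DKO over WT (horizontal axis) for 6 of the genes under the DESeq2 fit as designed and 16 alternatives (vertical axis), filled where the adjusted p-value was under 0.05, with Kitl drawn as crosses without a test. Kit is filled in 15 of the 17 fits, and every estimate is negative.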

How the data were processed

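RNA from 6 submandibular glands was made into unstranded Nextera XT libraries and sequenced on a HiSeq2500. The deposited files hold raw counts by symbol, unfiltered (43280 rows) and filtered (17527 rows), and a table of scaled values that was not used here. The submitters' processing notes name STAR 2.5.2a, DESeq2, edgeR and limma, the last 3 without a version, and the builds GRCm38, mm10 and GRCh38 (human), without a role for any of them. The counting tool and annotation are not given in the sources used here. Rows with at least 10 counts over the 6 libraries were tested with DESeq2 1.42.0 in R 4.3.3 (Wald test, two-sided, median-of-ratios size factors, Benjamini-Hochberg adjustment, threshold 0.05), the test named by the study. DESeq2 left 2556 rows with no adjusted p-value. Alternatives used edgeR 4.0.16, limma 3.58.1, other scalings, filters, a replicate block and each library left out. With 3 libraries against 3, an exact permutation test cannot give p below 0.1, so none was made. Libraries of a group differed by chi-square values per degree of freedom from 18.3 to 47.6, and each was counted as 1 replicate. Positions and exon lengths are from GENCODE M21 (GRCm38), matched by symbol. The table lists Adgre1 under its older symbol Emr1. Splice forms of Kitl, Csf1 and Pdgfa are not separated by gene counts.

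The genes and lists were chosen with earlier results of these data known. Genes named are the 10 ligands and receptors, the targeted genes, the other class members, pathway genes past the threshold in any fit, and the 3 genes nearest in profile to each of the 10 that passed the threshold in any fit. Dusp4, Dusp6 and single markers were picked with their values in view. The result of 1 marker list is not reported here.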

Additional observations from a re-analysis of the deposited data

How the results depend on the processing

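All 10 log2 fold changes were negative in all 17 fits. Of the 160 values under an alternative, 138 kept their side of the threshold, 16 lost a call and 6 gained one. These counts include Kitl and Pdgfa, whose values were known when the genes were grouped, so they are only a description. The number of the 10 genes called was 3, Kitl among them. It became 0 with edgeR, 0 with limma-voom and 6 with total counts as size factors, a fit that shifted the median of all rows by -0.23. With 1 library left out it ran from 1 to 4. The number of pathway genes called was 1, and it became 0 with edgeR, 0 with limma-voom and 8 with total counts as size factors, and ran from 0 to 3 with 1 library left out. The 8 were Adam10, Plau, Sos1, Pik3r1, Pik3ca, Cblb, Jak2 and Stat5a, all lower. Jak2 was also called lower without DKO 1. Over all rows, 539 were called (189 higher, 350 lower). edgeR called 10, limma-voom 7 and total counts as size factors 1469 (62 higher, 1407 lower), and leaving out 1 library gave 149 to 817, the ends being without WT 5 and without WT 4. The cause of these changes was not tested. With the replicate block, 343 rows, 2 of the 10 genes (Kit and Pdgfra) and 0 pathway genes were called. Deviations of same-numbered libraries correlated at -0.133, -0.0244 and -0.259, so the numbers were not taken as pairs. With longest transcripts in place of merged exons, 4 of 10 genes kept their place in the order of levels. Flt3 and the mast cell genes had too few counts for a difference of moderate size to be detectable.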
